A study of Mus musculus with 2 samples.

Results

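The genes described here are 36 genes of cholesterol and fatty acid synthesis, chosen by name: each listed symbol was looked up in the gene table of the deposited matrix, and all 36 were found among its 32285 genes. They fall into 17 enzymes of sterol synthesis, 5 regulators of the SREBP pathway and 14 enzymes and cofactors of fatty acid and triglyceride synthesis, and the 3 lists are given apart throughout. The study profiled nuclei from frozen mouse liver by droplet single-nucleus RNA sequencing with a 10x Genomics 3′ kit. Per the labels, the tissue was liver, the disease state was hepatocellular carcinoma (HCC), and the material was a microdissected area holding residual tumour. The labels list 2 samples, both of 1 group named for minimal residual disease, and name no genotype, strain, age or treatment. The deposited matrix pools these samples and its barcodes carry no sample name, so the 2 samples cannot be told apart, no value below has a replicate, and no test between groups was possible.

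Cholesterol is built from acetyl-CoA through the mevalonate pathway, then squalene, lanosterol and a series of ring modifications. The transcription factor SREBP2 drives most genes of that route, and SREBP1 drives those of fatty acid synthesis; both are held in the endoplasmic reticulum by SCAP bound to INSIG proteins when sterols are plentiful, and are cut and sent to the nucleus when sterols are scarce or, for SREBP1, when insulin is high. In liver, hepatocytes make most of the cholesterol and fat that the body exports, and many of their metabolic genes differ between hepatocytes near the portal vein and those near the central vein.

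The filtered matrix held 17169 barcodes and 95130408 unique molecular identifiers (UMIs, counts of distinct captured molecules), with a median of 2794 UMIs a barcode. Of these, 16411 barcodes passed limits of 500 UMIs, 300 genes and 5% mitochondrial UMIs. Nuclei were classed by marker genes that include none of the 36 members, and 7232 met no gate (median 1223 UMIs) while 1296 met gates of more than 1 lineage. RNA outside nuclei was measured in 49929 barcodes with 500 to 850 UMIs that were not called as nuclei, and is called free RNA below. Levels are UMI counts scaled to a common total (CPM) and summed over all nuclei of a class, and each interval is an exact 95% Poisson interval that covers counting error only. Since CPM does not account for gene length, each level is compared with the same gene in other classes. Nuclear libraries of this kind also hold unspliced RNA, and the sources used here do not say whether intron reads were counted.

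Of the epithelial nuclei outside the hepatocyte gates, 2133 were Ccnd3-type, 609 Kcnj16-type, 300 Zfp804a-type and 46 ductal, each named for genes of its gate. Ccnd3, a cyclin of the cell cycle, had 8391 CPM in Ccnd3-type nuclei, against 247 CPM in hepatocyte nuclei, and Gpc3, an oncofetal proteoglycan, had 391 and 8.3 CPM in the same order. Pkhd1, a gene of bile duct and kidney epithelium, had 4556 CPM in Kcnj16-type nuclei and 153 CPM in hepatocyte nuclei, while Zfp804a had 1169 CPM in Zfp804a-type nuclei and 3.8 CPM in hepatocyte nuclei. Cftr, a chloride channel of bile duct cells, had 1051 CPM in ductal nuclei and 1.5 CPM in hepatocyte nuclei. Stroma (1312 nuclei) joined stellate cells, fibroblasts and mural cells. The hepatocyte class had 2074 nuclei, of which 365 were pericentral by markers such as Glul (766 CPM, against 15.8 CPM in periportal nuclei) and 1026 periportal by markers such as Sds (29.2 CPM in pericentral and 640.9 CPM in periportal nuclei). Classes differed in depth, with a median of 5043 UMIs in Ccnd3-type nuclei and 13795.5 in hepatocyte nuclei, and in their estimated share of free RNA, which was 31.9% in Ccnd3-type, 21.1% in Kcnj16-type, 14.2% in Zfp804a-type, 41.6% in stromal and 13.6% in hepatocyte nuclei. That estimated share sets a level each gene would show in a class with no transcript of its own, and this level is given beside the results it touches. For Scd1 it gives more than was counted in several classes, so levels from free RNA may be too high. The Ccnd3-type class is mixed: 592 of its nuclei lay in an expression cluster led by bile duct genes such as Cftr, and 439 in one led by Zfp804a and Hmga2. Whether the Ccnd3-type, Kcnj16-type and Zfp804a-type nuclei are malignant was not tested.

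The sterol enzymes were lower in all 3 of these epithelial types than in hepatocytes, along the whole route from the mevalonate steps to the last reductase. A member was counted as different where its summed level differed at least 2-fold (on the log2 scale with 1 CPM added) with at least 20 UMIs over both classes, a minimum that all 36 members met in each comparison with hepatocyte nuclei. In Ccnd3-type nuclei 16 of 17 sterol enzymes were lower and none higher, where 8.92% of all 17095 genes with that many UMIs were lower. In Kcnj16-type nuclei all 17 were lower (13.1% of all genes), and in Zfp804a-type nuclei 16 were (15.5% of all genes). The median log2 ratio of the list was -1.80, -2.01 and -1.91 in Ccnd3-type, Kcnj16-type and Zfp804a-type nuclei, where the median over all genes was 0.27, 0.21 and 0.14. The remaining gene, Ebp, which shifts a double bond in the sterol ring, was within 2-fold in Ccnd3-type nuclei (26.2 CPM, against 39.0 CPM in hepatocyte nuclei) and in Zfp804a-type nuclei (28.8 CPM).

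Among the mevalonate enzymes, Mvd, which makes isopentenyl diphosphate, stood furthest apart, with 5.28 CPM in Ccnd3-type, 4.13 in Kcnj16-type and 6.88 in Zfp804a-type nuclei, against 39.9 CPM in hepatocyte nuclei. In Ccnd3-type nuclei that was 7.56-fold lower (interval 5.97 to 9.70) and in Kcnj16-type nuclei 9.66-fold lower (6.36 to 15.5). Hmgcs1, the enzyme that makes HMG-CoA at the head of the pathway, had 88.0, 77.9 and 65.3 CPM in the 3 types in the same order and 253 CPM in hepatocyte nuclei. The hepatocyte level was above each of the 3 others for these genes, as it was for Mvk and Pmvk, the kinases between them, and for Fdps, which joins isoprenoid units into farnesyl diphosphate (61.3 CPM in Ccnd3-type and 226 CPM in hepatocyte nuclei). Idi1, an isomerase of those units, had 29.1 CPM in Ccnd3-type nuclei and 104 CPM in hepatocyte nuclei.

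The squalene steps showed the same order. Fdft1, squalene synthase, had 40.7 CPM in Ccnd3-type, 37.7 in Kcnj16-type and 31.4 in Zfp804a-type nuclei, against 169 CPM in hepatocyte nuclei, which made it 4.15-fold lower in Ccnd3-type nuclei (3.80 to 4.53). Sqle, which oxidises squalene, had 30.3, 21.6 and 41.7 CPM in these types and 112 CPM in hepatocyte nuclei. Lss, which folds the oxidised squalene into lanosterol, had 16.9, 10.7 and 8.59 CPM, against 53.4 CPM in hepatocyte nuclei. Sqle was thus closest to the hepatocyte level in Zfp804a-type nuclei, where Lss was furthest from it.

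Past lanosterol, Msmo1, which oxidises the methyl groups of the ring, was 4.77-fold lower in Ccnd3-type nuclei (4.41 to 5.16), with 49.5 CPM against 236 CPM in hepatocyte nuclei. Nsdhl, the dehydrogenase that acts after it, was 4.65-fold lower (4.02 to 5.40), and Hsd17b7, the ketoreductase of the same complex, was 4.22-fold lower (3.68 to 4.84). Dhcr7, the reductase that ends one branch of the pathway, had 18.4 CPM in Ccnd3-type, 12.2 in Kcnj16-type and 15.9 in Zfp804a-type nuclei, against 62.4 CPM in hepatocyte nuclei. Cyp51, which removes a methyl group from lanosterol, Sc5d, a desaturase of the ring, and Tm7sf2, a reductase, had 29.4, 63.7 and 7.74 CPM in Ccnd3-type nuclei, against 104, 192 and 24.5 CPM in hepatocyte nuclei. Tm7sf2 overlaps Vps51 on its own strand in the annotation, so its counts are the least certain of the list.

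These low levels were close to what free RNA alone would give in some types and above it in others. Summed over the 17 sterol enzymes, Ccnd3-type nuclei had 513 CPM where their share of free RNA alone gives 497 CPM, and 5 of 17 members were above that level. Kcnj16-type nuclei had 430 CPM (329 CPM from free RNA, 10 members above) and Zfp804a-type nuclei 486 CPM (221 CPM from free RNA, 15 members above), while hepatocyte nuclei had 1812 CPM, 8.57 times the 211 CPM from free RNA. With the free RNA level subtracted the list was further below hepatocytes, with median log2 ratios of -4.94 in Ccnd3-type, -3.47 in Kcnj16-type and -2.57 in Zfp804a-type nuclei. At its estimated share, the sterol sum of the pooled Ccnd3-type class therefore does not separate its own transcripts from free RNA. That share also gives more Scd1 than was counted in these nuclei, so it may be too high and hide an excess. Its estimated share of free RNA (31.9%) was above that of each cluster holding most of its nuclei (26.4% in cluster 5, 20.8% in cluster 7, 15.8% in cluster 9 and 15.7% in cluster 10), and the sums by cluster are given below.

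**Figure D1:**
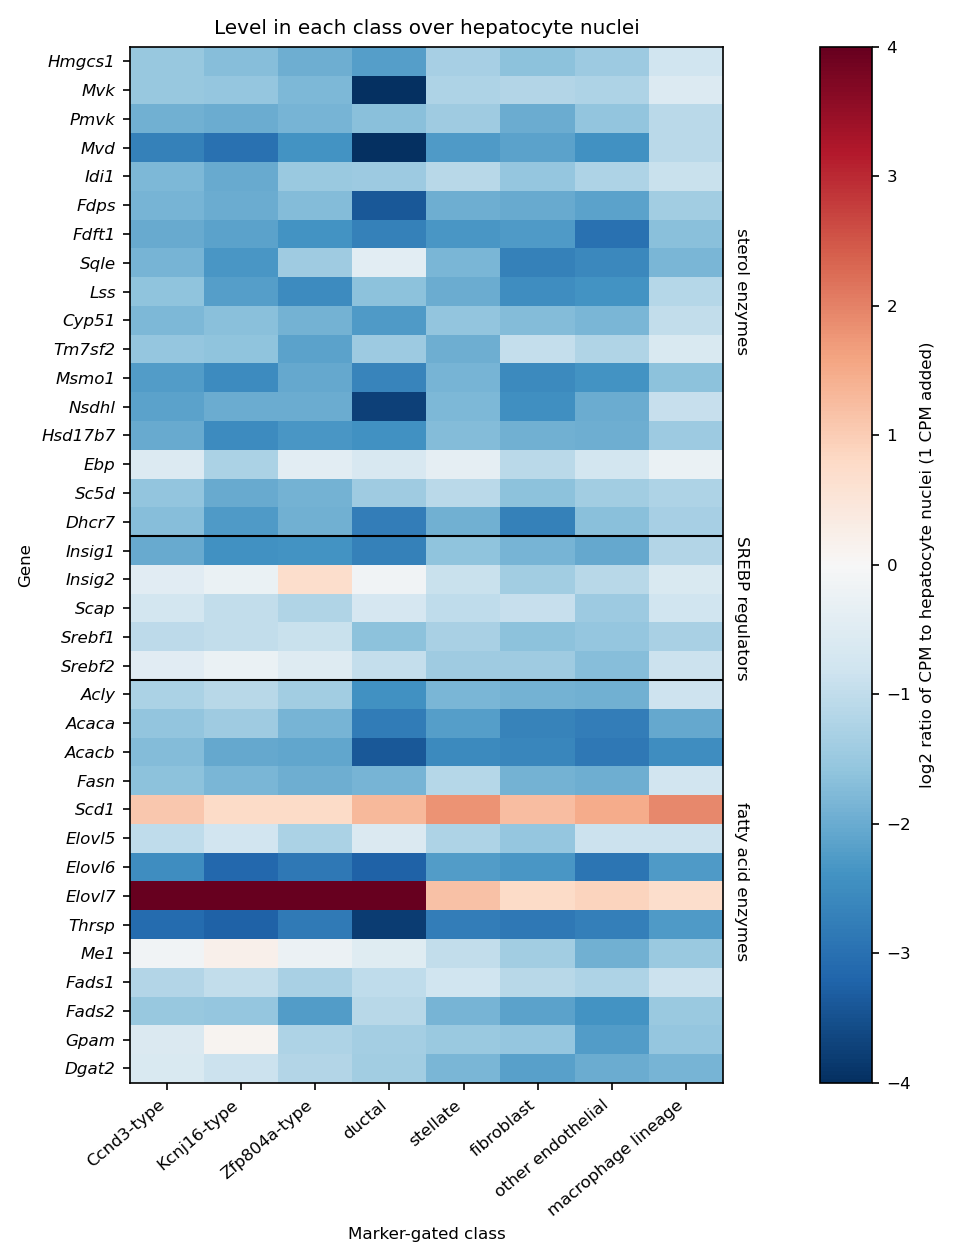
Log2 ratio of each of the 36 members (rows, by list) in 8 comparisons (columns), from CPM summed over nuclei with 1 CPM added; blue is lower and red higher in the class named first, and colours stop at 4 in either direction. The sterol rows are blue in every Ccnd3-type, Kcnj16-type, Zfp804a-type, ductal and stromal column apart from pale cells at Ebp and, in ductal nuclei, Sqle, while Elovl7 is red in the epithelial columns. Mvk and Mvd had 0 UMIs in ductal nuclei.

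The promoters of the sterol enzymes share short sequence elements that the choice of genes did not use. In 250 bases upstream of the start, taken from RefSeq on GRCm38.p6, CCAAT, the core element bound by NF-Y, was found on either strand in 14 of the 14 sterol enzymes that had an entry, in 4 of 5 regulators and in 6 of 11 fatty acid genes. Counted by promoter, 82.4% of the sterol promoters held CCAAT, against 33.9% of all 32851 promoters in the table. GGGCGG, the core of an Sp1 site, was in 13 of 14 sterol enzymes and 5 of 11 fatty acid genes. By promoter it was in 82.4% of sterol and 38.5% of fatty acid promoters, against 32.7% of all promoters. The sterol element TCACNCCAC was found in 1 of 14 sterol enzymes, Hmgcs1, which was 5.88% of sterol promoters, against 1.05% of all promoters. The E-box CACGTG was in 3 of 14, or 17.65% of sterol promoters, against 6.02% of all promoters. Each element was searched on both strands, matches of different elements can share bases, promoters of 1 gene can overlap, and a match is a description of these windows and not a binding site. Fdps, Fdft1, Sqle, Scd1, Fads1 and Dgat2 had no entry. The 4 windows below, from the sterol enzymes lower in Ccnd3-type nuclei that held the most matches (Dhcr7 tied with Msmo1 and the regulator Insig1), show where these elements stand, with capitals marking a match or its reverse complement. Most other sterol promoters held fewer, such as 3 for Lss and 2 for Cyp51, so the printed windows do not show the usual density. They are given 5′ to 3′ on the gene's own strand, at chr1:169969206-169969455 on the minus strand for Hsd17b7, and on the plus strand at chr5:114444019-114444268 for Mvk, chr13:119690101-119690350 for Hmgcs1 and chr7:143829964-143830213 for Dhcr7, which is the third of its listed starts.
Hsd17b7: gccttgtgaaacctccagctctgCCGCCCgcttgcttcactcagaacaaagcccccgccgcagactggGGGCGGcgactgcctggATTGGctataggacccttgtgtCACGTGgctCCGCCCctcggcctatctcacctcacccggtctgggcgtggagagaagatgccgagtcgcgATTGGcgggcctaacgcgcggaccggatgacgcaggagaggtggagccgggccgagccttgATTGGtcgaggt
Mvk: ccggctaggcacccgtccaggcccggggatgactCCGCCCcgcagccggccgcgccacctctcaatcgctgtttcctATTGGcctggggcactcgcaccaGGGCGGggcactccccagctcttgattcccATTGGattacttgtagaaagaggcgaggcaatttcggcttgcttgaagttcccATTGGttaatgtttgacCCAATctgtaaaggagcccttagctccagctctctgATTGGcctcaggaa
Hmgcs1: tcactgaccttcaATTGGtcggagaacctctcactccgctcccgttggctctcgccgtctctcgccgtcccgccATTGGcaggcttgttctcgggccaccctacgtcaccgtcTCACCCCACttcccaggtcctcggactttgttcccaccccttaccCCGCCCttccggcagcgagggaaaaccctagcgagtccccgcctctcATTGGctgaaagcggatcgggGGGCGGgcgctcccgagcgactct
Dhcr7: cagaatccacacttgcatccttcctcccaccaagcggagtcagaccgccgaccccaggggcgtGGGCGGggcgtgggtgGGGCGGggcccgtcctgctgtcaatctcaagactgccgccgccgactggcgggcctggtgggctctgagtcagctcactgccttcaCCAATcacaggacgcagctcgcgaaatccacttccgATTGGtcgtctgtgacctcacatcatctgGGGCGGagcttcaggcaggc

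Mvk held 5 CCAAT and 2 GGGCGG matches, and Hsd17b7 held 3 CCAAT, 3 GGGCGG and 1 CACGTG. Hmgcs1 held 3 CCAAT, 2 GGGCGG and its 1 sterol element, and Dhcr7 held 2 CCAAT and 3 GGGCGG.

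Of the 5 regulators, Insig1 was far lower in the epithelial types while Insig2 and Srebf2 stayed within 2-fold. Insig1, itself a target of SREBP that retains SCAP in the endoplasmic reticulum, had 34.1 CPM in Ccnd3-type, 25.3 in Kcnj16-type and 26.2 in Zfp804a-type nuclei, against 141 CPM in hepatocyte nuclei. It was 4.12-fold lower in Ccnd3-type nuclei (3.75 to 4.54), where free RNA alone gives 36.2 CPM. Insig2, which retains SCAP in the same way, had 120, 137 and 267 CPM in the 3 types and 165 CPM in hepatocyte nuclei. Zfp804a-type nuclei thus held the highest Insig2 level of the classes compared, 1.62-fold above hepatocytes (1.49 to 1.76), and free RNA alone gives 24.2 CPM there. Srebf2, which encodes SREBP2, had 119, 133 and 113 CPM in these types, against 162 CPM in hepatocyte nuclei.

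Srebf1, which encodes SREBP1, had 25.6, 27.2 and 29.2 CPM in Ccnd3-type, Kcnj16-type and Zfp804a-type nuclei and 54.5 CPM in hepatocyte nuclei, close to the 2-fold limit in all 3. It overlaps Rai1 on the opposite strand. Scap, the sterol sensor that carries SREBP to the Golgi, had 51.2, 42.4 and 37.0 CPM, against 85.7 CPM in hepatocyte nuclei, and was past 2-fold in Zfp804a-type nuclei. In all, 2 of 5 regulators were lower in Ccnd3-type nuclei (8.92% of all genes), 1 in Kcnj16-type (13.1%) and 2 in Zfp804a-type nuclei (15.5%). The Kcnj16-type count was thus close to the share of all genes. In the same order the medians were -0.73, -0.98 and -0.88 on the log2 scale. The regulators' summed level was 350 CPM in Ccnd3-type, 366 in Kcnj16-type and 472 CPM in Zfp804a-type nuclei, against 607 CPM in hepatocyte nuclei, and exceeded the free RNA level 2.40, 3.78, 7.24 and 9.76 times in this order.

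**Figure D2:**
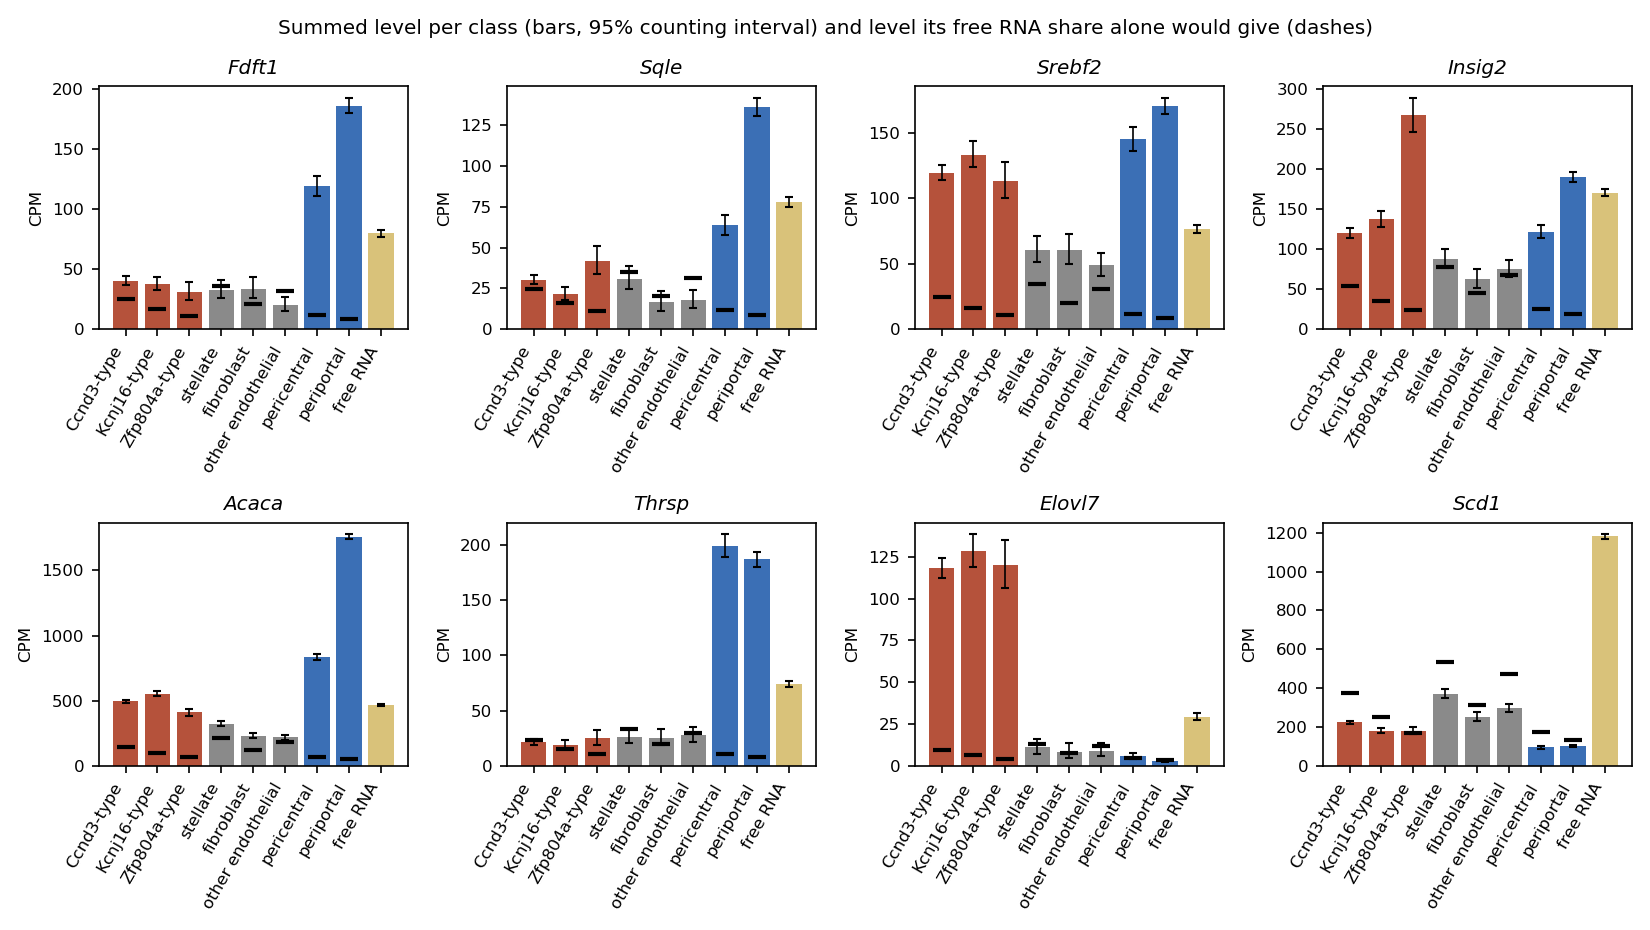
Level in CPM (bars, with 95% counting intervals) of 8 members in Ccnd3-type, Kcnj16-type and Zfp804a-type nuclei (red), stromal and endothelial classes (grey), hepatocyte zones (blue) and free RNA (yellow); dashes mark the level that a class's share of free RNA alone gives. Fdft1 and Sqle bars are tallest in periportal nuclei, Insig2 is tallest in Zfp804a-type nuclei, Elovl7 stands in the red classes, and Scd1 is tallest in free RNA (1181 CPM).

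The fatty acid genes split: the enzymes that build fatty acids from acetyl-CoA were lower, the NADPH supplier Me1 was close to hepatocytes, and Elovl7 was far higher. Of 14, 9 were lower in Ccnd3-type (8.92% of all genes), 7 in Kcnj16-type (13.1%) and 11 in Zfp804a-type nuclei (15.5%), with median log2 ratios of -1.22, -1.04 and -1.35. At least 2-fold higher were 2 in Ccnd3-type nuclei, Elovl7 and Scd1 (20.6% of all genes were higher), and Elovl7 in Kcnj16-type (19.5%) and in Zfp804a-type nuclei (20.1%). The 14 genes summed to 1864 CPM in Ccnd3-type, 2016 in Kcnj16-type and 1514 CPM in Zfp804a-type nuclei, against 3963 CPM in hepatocyte nuclei, which was 1.89, 3.08, 3.43 and 9.42 times the level from free RNA.

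Thrsp, a nuclear cofactor of lipogenesis, was the lowest relative to hepatocytes, with 21.4 CPM in Ccnd3-type, 19.2 in Kcnj16-type and 25.4 in Zfp804a-type nuclei, against 188 CPM in hepatocyte nuclei. It was 8.76-fold lower in Ccnd3-type nuclei (7.80 to 9.88), at a level that the estimated share of free RNA alone would give (23.5 CPM). Elovl6, which extends palmitate to stearate, had 56.4, 35.5 and 43.0 CPM in the 3 types and 318 CPM in hepatocyte nuclei, 5.63-fold (5.23 to 6.06) and 8.95-fold (7.75 to 10.4) lower in Ccnd3-type and Kcnj16-type nuclei. For these genes no type reached the hepatocyte level.

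Acaca, the acetyl-CoA carboxylase that commits carbon to fatty acids, had 494, 553 and 411 CPM in Ccnd3-type, Kcnj16-type and Zfp804a-type nuclei, against 1489 CPM in hepatocyte nuclei. It was 3.01-fold lower in Ccnd3-type nuclei (2.94 to 3.09) but well above the 148 CPM that free RNA gives. Acacb, the carboxylase at the mitochondrion, had 55.1, 43.9 and 43.0 CPM in these types and 186 CPM in hepatocyte nuclei. Acly, which makes cytosolic acetyl-CoA from citrate, had 103, 115 and 93.3 CPM, against 247 CPM in hepatocyte nuclei. Fasn, fatty acid synthase, had 29.4, 25.2 and 23.2 CPM, against 92.8 CPM in hepatocyte nuclei, while free RNA held 97.3 CPM of it. Acetyl-CoA supply, carboxylation and chain synthesis were thus each at least 2-fold lower in all 3 types.

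The desaturases and the elongase of polyunsaturated fat were also lower in Ccnd3-type and Zfp804a-type nuclei. Fads2, the first desaturase of that route, had 126, 122 and 75.6 CPM in the 3 types and 359 CPM in hepatocyte nuclei. Fads1, which acts after it, was at 52.2 CPM in Ccnd3-type and 119 CPM in hepatocyte nuclei, and Elovl5, the elongase between them, at 84.5 and 173.5 CPM. Both were within 2-fold in Kcnj16-type nuclei (59.9 CPM for Fads1 and 102 CPM for Elovl5).

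Me1, the malic enzyme that supplies NADPH, was within 2-fold in each type, with 183, 235 and 171 CPM in Ccnd3-type, Kcnj16-type and Zfp804a-type nuclei, against 203 CPM in hepatocyte nuclei. Gpam, which adds the first acyl chain to glycerol 3-phosphate, had 174, 276 and 110 CPM, against 257 CPM in hepatocyte nuclei, so that Kcnj16-type nuclei were at the hepatocyte level and Zfp804a-type nuclei 2.35-fold below it (2.07 to 2.67). Dgat2, which completes triglyceride, had 143, 120 and 98.4 CPM in these types and 221 CPM in hepatocyte nuclei. Set against Kcnj16-type nuclei directly, Zfp804a-type nuclei had 1 member at least 2-fold apart, Gpam, where 4.08% of all genes were lower.

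Elovl7, an elongase of long acyl chains (GRCm38 chr13:108214404-108285683), went the other way. It had 118 CPM in Ccnd3-type, 129 in Kcnj16-type, 120 in Zfp804a-type and 158 CPM in ductal nuclei, against 4.39 CPM in hepatocyte nuclei. It was 26.9-fold higher in Ccnd3-type (22.7 to 32.1), 29.3-fold in Kcnj16-type (24.4 to 35.3) and 27.3-fold in Zfp804a-type nuclei (22.2 to 33.6). Stromal nuclei had 9.66 CPM, less than the 12.3 CPM from their free RNA, so that the level stood above free RNA in the epithelial classes outside the hepatocyte gates. With each nucleus thinned to 1000 UMIs, 10.4% of Ccnd3-type (exact binomial interval 9.18 to 11.8), 12.1% of Kcnj16-type and 12.5% of Zfp804a-type nuclei held an Elovl7 UMI, against 0.768% of stromal and 0.685% of hepatocyte nuclei. Before thinning the share was 41.2% of Ccnd3-type, 53.5% of Kcnj16-type, 2.74% of stromal and 4.97% of hepatocyte nuclei, so that stroma and hepatocytes, both low, stood in the opposite order before thinning.

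Scd1, which puts the first double bond into stearate and is abundant in liver cytoplasm, ranked higher outside hepatocyte nuclei than in them. It had 225 CPM in Ccnd3-type, 181 in Kcnj16-type, 181 in Zfp804a-type and 319 CPM in stromal nuclei, against 107 CPM in hepatocyte nuclei, but 1181 CPM in free RNA, 11.04 times the hepatocyte level. The estimated share of free RNA alone gives more Scd1 than was counted in Ccnd3-type, stromal and hepatocyte nuclei. The same held for Kcnj16-type, ductal and macrophage lineage nuclei, so no ratio of own transcripts could be given for any of these classes. Free RNA cannot add more of a gene than was counted. In these classes the share was thus estimated too high, or the profile of uncalled barcodes differs from the free RNA among nuclei. Which applies was not tested, and the free RNA levels of other members may be too high as well. Free RNA held more than hepatocyte nuclei for 5 of 17 sterol enzymes, 1 of 5 regulators and 4 of 14 fatty acid genes, with Elovl7 (6.71 times) and Ebp (2.49 times) next after Scd1. The share of all genes higher in free RNA is not given here, so these counts describe the members only.

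Ductal and stromal nuclei were also low for both enzyme lists. In the 46 ductal nuclei, 15 of 17 sterol enzymes (23.8% of all genes lower), 2 of 5 regulators and 10 of 14 fatty acid genes were lower, and 2 fatty acid genes, Elovl7 and Scd1, were higher (25.3% of all genes higher). Mvk and Mvd had 0 UMIs there, which allows up to 12.5 CPM at a limit of 3 UMIs. Sqle was within 2-fold, with 83.0 CPM in ductal and 112 CPM in hepatocyte nuclei. With 46 nuclei the intervals were wide, as for Fdft1, which was 6.77-fold lower (3.11 to 18.5). Tm7sf2, counted as lower, rests on 2 UMIs, and its fold of 0.340 had an interval of 0.041 to 1.23 that takes in no change. The share of free RNA was 32.2% in ductal nuclei. That share alone gives a larger sterol enzyme sum than was counted there, and more Scd1.

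In stroma 16 of 17 sterol enzymes (13.8% of all genes lower), 4 of 5 regulators and 11 of 14 fatty acid genes were lower, with median log2 ratios of -1.80, -1.30 and -1.68, and Scd1 was higher (22.7% of all genes higher). Acaca had 286 CPM in stroma and 1489 CPM in hepatocyte nuclei, 5.21-fold lower (4.94 to 5.49), Acacb was 5.88-fold lower (5.02 to 6.94) and Fdft1 5.05-fold lower (4.33 to 5.93). The stromal sums did not exceed free RNA for the enzymes: sterol enzymes had 547 CPM where free RNA gives 648 CPM, and no member was above that level, while the fatty acid genes stood at 1.00 times it. Other endothelial nuclei, those outside the sinusoidal gate, had 490 CPM of sterol enzymes where free RNA gives 625 CPM. At the estimated shares, these sums did not show sterol enzyme transcripts beyond free RNA in stroma and other endothelium as pooled. The stromal share also gives more Scd1 than the 319 CPM counted, so it may be too high and hide an excess.

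Within stroma, 16 of 17 sterol enzymes were lower both in the 741 stellate nuclei (15.4% of all genes) and in the 410 fibroblast nuclei (16.6%), with Fdft1 at 32.8 CPM in stellate and 33.95 CPM in fibroblast nuclei. Fibroblast nuclei, whose share of free RNA was 26.4%, had a sterol sum of 456 CPM where free RNA gives 411 CPM, with 3 of 17 members above that level, among them Fdft1 and Fdps. Acaca had 232 CPM in fibroblast and 324 CPM in stellate nuclei. Free RNA held 466 CPM of Acaca and its share was 45.3% in stellate nuclei, so this difference was not separated from free RNA. In 298 macrophage lineage nuclei 10 of 17 sterol enzymes, 2 of 5 regulators and 8 of 14 fatty acid genes were lower (16% of all genes) and Scd1 was higher (23.2% of all genes), at 410 CPM against 107 CPM in hepatocyte nuclei. That Scd1 level was below what free RNA alone gives in macrophage lineage nuclei. The macrophage sterol sum of 785 CPM was 0.988 times the level from their free RNA, which was estimated at 51.0% of their UMIs.

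The Ccnd3 gate pooled nuclei of several expression clusters, so the lists were also read by cluster, from a clustering made without the 36 members. Of the Ccnd3-type nuclei 592 lay in cluster 5, 439 in cluster 7, 430 in cluster 9 and 291 in cluster 10. Cluster 9, led by A2m, Ren1 and Gucy2c, had the highest sterol enzyme sum of the 8 clusters outside hepatocytes read here, 660 CPM where free RNA gives 246 CPM, and all 17 members were above that level. Cluster 20 was within counting error of it, at 643 CPM where free RNA gives 484 CPM. Cluster 3, led by Kcnj16, had the lowest, 341.5 CPM where free RNA gives 205 CPM. Cluster 9 was nevertheless below hepatocytes, with 16 of 17 sterol enzymes lower (6.19% of all genes) and a median log2 ratio of -1.56. The count of lower sterol enzymes was 17 in cluster 3 (14.6% of all genes), 16 in cluster 5 (11.6%), cluster 7 (14.8%), cluster 10 (14.4%) and the dividing cluster 21 (18.1%), 15 in cluster 17 (20.4%) and 14 in cluster 20 (16.5%), with medians between -1.65 in cluster 5 and -2.32 in cluster 3.

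Set against cluster 3, cluster 9 had 7 sterol enzymes, 1 regulator and 2 fatty acid genes at least 2-fold higher, where 12.8% of all genes were. Mvd was 3.72-fold higher (2.21 to 6.39), with 9.48 CPM in cluster 9 and 2.55 CPM in cluster 3, and Fdft1 was 2.30-fold higher (1.89 to 2.79), with 49.8 and 21.7 CPM in this order. Insig1 was 2.60-fold higher (2.11 to 3.20), at 46.1 and 17.8 CPM, and Elovl6 4.11-fold higher (3.34 to 5.09), at 59.1 and 14.4 CPM. The other members past 2-fold were Sqle, Lss, Msmo1, Sc5d, Dhcr7 and Fads2, and the median log2 difference was 0.94 for sterol enzymes, 0.39 for regulators and 0.38 for fatty acid genes, against 0.03 over all genes.

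Single members set other clusters apart. Cluster 10, led by Pappa2, had 851 CPM of Acaca. Cluster 17, to which the gates gave no class, had 94.0 CPM of Sqle, 73.7 CPM of Insig1 and 280 CPM of Insig2. Gpam and Fads2 had 27.1 and 44.1 CPM in cluster 17, and 69.8 and 55.2 CPM in cluster 7, which is led by Zfp804a and Hmga2. Elovl7 lay between 80.5 CPM (cluster 17) and 191 CPM (cluster 20) in these clusters, against 3.04 to 4.26 CPM in the 3 hepatocyte clusters.

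**Figure D3:**
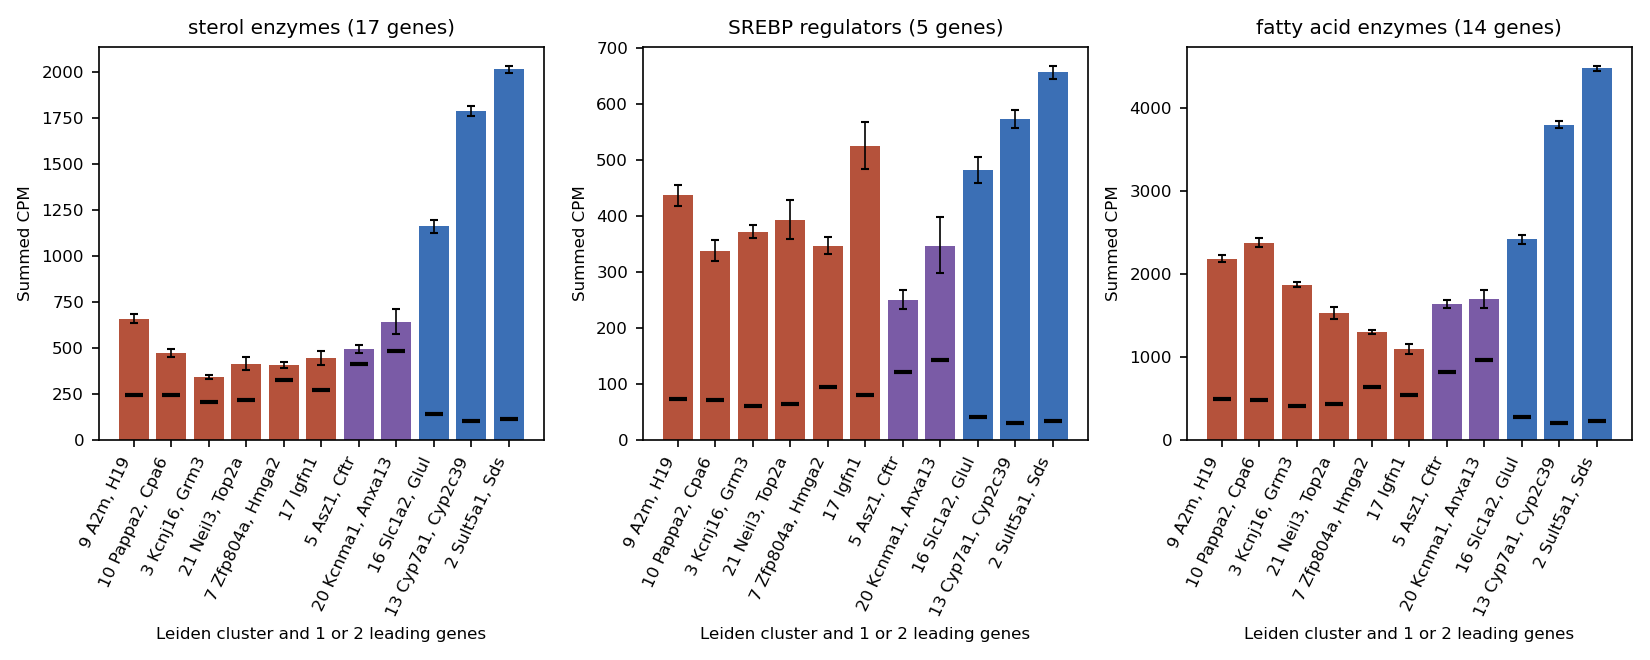
Summed level in CPM of each list in 11 clusters made without the members: clusters 9, 10, 3, 21, 7 and 17 (red, of which the gates gave cluster 17 no class), clusters 5 and 20 with Cftr (purple) and hepatocyte clusters 16, 13 and 2 (blue); dashes mark the sum that free RNA alone gives. For sterol enzymes cluster 9 (660 CPM) is the highest outside hepatocytes and cluster 3 (341.5 CPM) the lowest, and all lie below the hepatocyte clusters.

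Within the hepatocytes, most members were lower in pericentral nuclei. The sterol sum was 1359 CPM in pericentral and 1957 CPM in periportal nuclei, and the fatty acid sum 2873 CPM in pericentral and 4374 CPM in periportal nuclei. At least 2-fold lower were 3 sterol enzymes, no regulator and 2 fatty acid genes, where 2.7% of all genes were lower and 3.78% higher. Median log2 ratios were -0.62 for sterol enzymes, -0.24 for regulators and -0.40 for fatty acid genes, and 0.00 over all genes. The share of free RNA was 14.95% in pericentral and 11.3% in periportal nuclei.

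Acly was the furthest apart, with 82.2 CPM in pericentral and 323 CPM in periportal nuclei, 3.93-fold lower (3.61 to 4.30). Acaca had 837 CPM in pericentral and 1758 CPM in periportal nuclei, 2.10-fold lower (2.04 to 2.16). Among sterol enzymes, Lss was 2.36-fold lower (2.03 to 2.76), Sqle 2.13-fold (1.93 to 2.37) and Dhcr7 2.11-fold (1.83 to 2.43). The members past 2-fold thus were the cytosolic supply of acetyl-CoA, its carboxylation and 3 sterol steps from squalene onward. Fasn was closer, at 66.5 CPM in pericentral and 99.9 CPM in periportal nuclei.

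A few members were higher in pericentral nuclei, all within 2-fold on the scale used. Hsd17b7 had 105 CPM in pericentral and 59.2 CPM in periportal nuclei, 1.78-fold higher (1.62 to 1.96), alone among the 17 sterol enzymes. Dgat2 was 1.38-fold higher (1.30 to 1.46), at 274 CPM in pericentral and 199 CPM in periportal nuclei, and Gpam 1.22-fold higher (1.16 to 1.29), at 285 and 233 CPM in this order. Thrsp was near equal, with 199 and 187 CPM. The 683 hepatocyte nuclei with no zone lay near the periportal level for many members. Among the 2 zones, these unzoned nuclei and the stellate, fibroblast, other endothelial, macrophage, ductal and 3 other epithelial classes, the highest level was periportal for 12 of 17 sterol enzymes, 3 of 5 regulators and 5 of 14 fatty acid genes. It was in unzoned nuclei for 4 sterol enzymes, 1 regulator and 3 fatty acid genes, such as Fdps (260 CPM, against 222 CPM in periportal nuclei), while Sc5d and Msmo1 were nearly equal in unzoned and periportal nuclei. Hsd17b7, Thrsp, Gpam and Dgat2 were highest in pericentral nuclei. The share of all genes highest in each class is not given here, so these counts describe the members only.

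The contrast was wider between cluster 16, led by Slc1a2 and Glul, and cluster 2, led by Sult5a1 and Sds. There 7 sterol enzymes and 2 fatty acid genes were lower (4.61% of all genes) and Hsd17b7 higher (5.12% of all genes). Acly had 51.9 CPM in cluster 16 and 338 CPM in cluster 2, 6.50-fold lower (5.63 to 7.56), and Sqle 44.5 and 141 CPM, 3.18-fold lower (2.71 to 3.75). Hsd17b7 had 121 CPM in cluster 16 and 59.5 CPM in cluster 2, 2.03-fold higher (1.81 to 2.27).

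**Figure D4:**
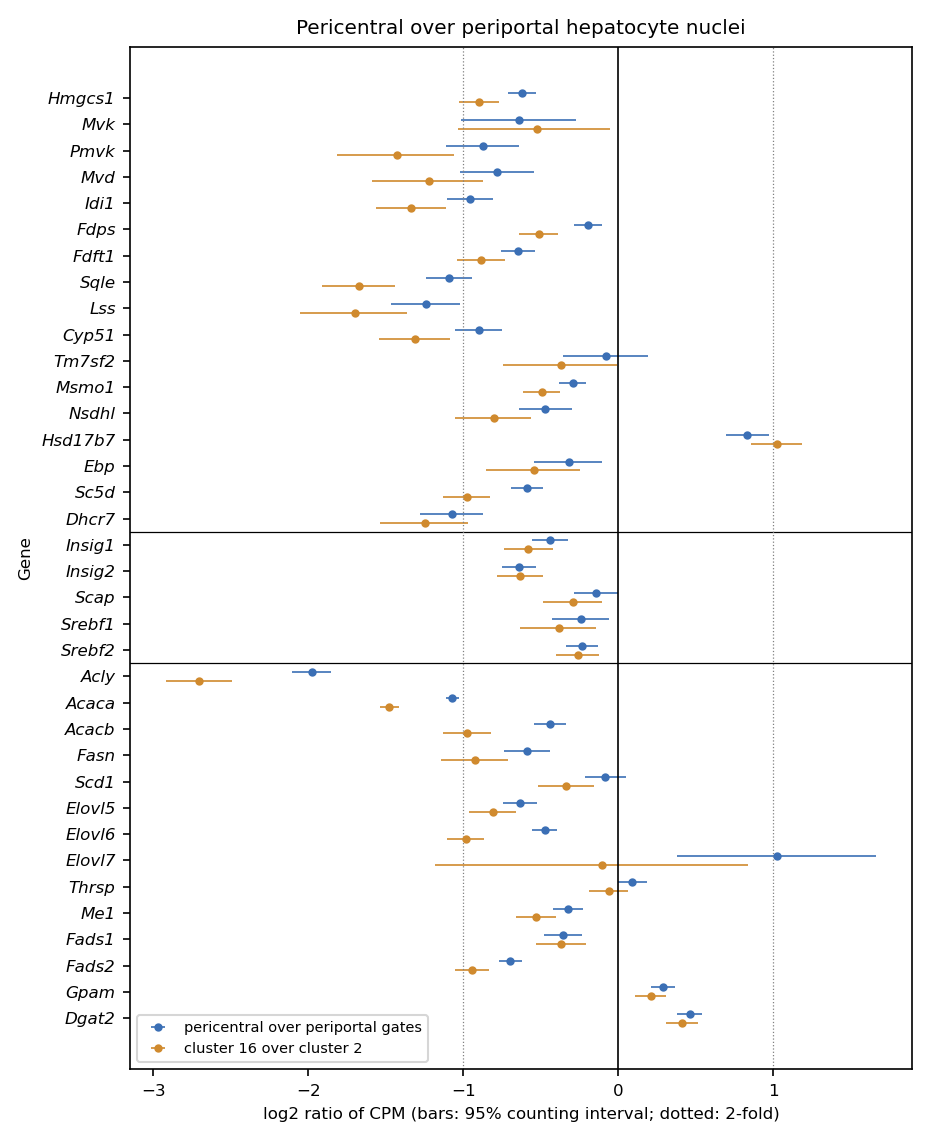
Log2 fold (without added CPM, with 95% counting intervals) of each member in pericentral over periportal nuclei by marker gates (blue) and in cluster 16 over cluster 2 (orange). Most points lie left of 0, Acly furthest, and Hsd17b7 lies to the right in both.

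Dividing nuclei of the Pkhd1 types (84 nuclei that met a gate of mitotic genes, against 948 others of the same types) had list medians near 0. The median log2 ratios were 0.03 for sterol enzymes, 0.11 for regulators and -0.18 for fatty acid genes. Tm7sf2 was the 1 member past 2-fold, with 0.88 CPM in dividing and 7.20 CPM in non-dividing nuclei (6.64% of all genes lower and 6.34% higher), but it rests on 1 UMI in dividing nuclei and its fold of 0.122 had an interval of 0.003 to 0.710.

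Nuclei of the Pkhd1 types were also ranked by their share of UMIs in hypoxia-induced genes such as Ndrg1 and Vegfa, and the 344 nuclei with the highest share were set against the 344 with the lowest. At least 2-fold lower in hypoxia-high nuclei were 6 of the 16 sterol enzymes with enough UMIs, 1 regulator and 2 fatty acid genes, where 8.94% of all genes were lower and 2.66% higher. Elovl6 had 15.9 CPM in hypoxia-high and 57.2 CPM in hypoxia-low nuclei, 3.61-fold lower (2.58 to 5.14), and Insig1 had 12.4 and 30.9 CPM in this order, 2.49-fold lower (1.66 to 3.80). Fdft1 had 21.7 CPM in hypoxia-high and 49.5 CPM in hypoxia-low nuclei, 2.28-fold lower (1.67 to 3.13). The others were Mvd, Idi1, Lss, Cyp51, Hsd17b7 and Fads2, and the sterol median was -0.87 on the log2 scale, against -0.11 over all genes.

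The hypoxia-high and hypoxia-low nuclei differed in makeup. Cluster 3 made up 81.7% of hypoxia-high and 25.9% of hypoxia-low nuclei, the 24 hepatocyte gate genes summed to 565 and 1061 CPM, and doublet calls were 1.74% and 6.10%, in the same order. Within cluster 3 alone, with 191 nuclei on each side, the hepatocyte genes summed to 522 CPM in hypoxia-high and 540 CPM in hypoxia-low nuclei. There Cyp51 (-1.03) and Fads2 (-1.17) were the members past 2-fold on the log2 scale, Elovl6 stood at -0.27 and Hsd17b7 at 0.29. The share of all genes past 2-fold within cluster 3 is not given here, so these calls describe the members only. Fads2 had 58.0 CPM in hypoxia-high and 132 CPM in hypoxia-low nuclei of cluster 3, 2.27-fold lower (1.76 to 2.94). Insig2 was higher in both readings, by 0.83 over all these nuclei and 0.81 within cluster 3 on the log2 scale, with 247 CPM in hypoxia-high and 140 CPM in hypoxia-low nuclei of cluster 3.

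**Figure D5:**
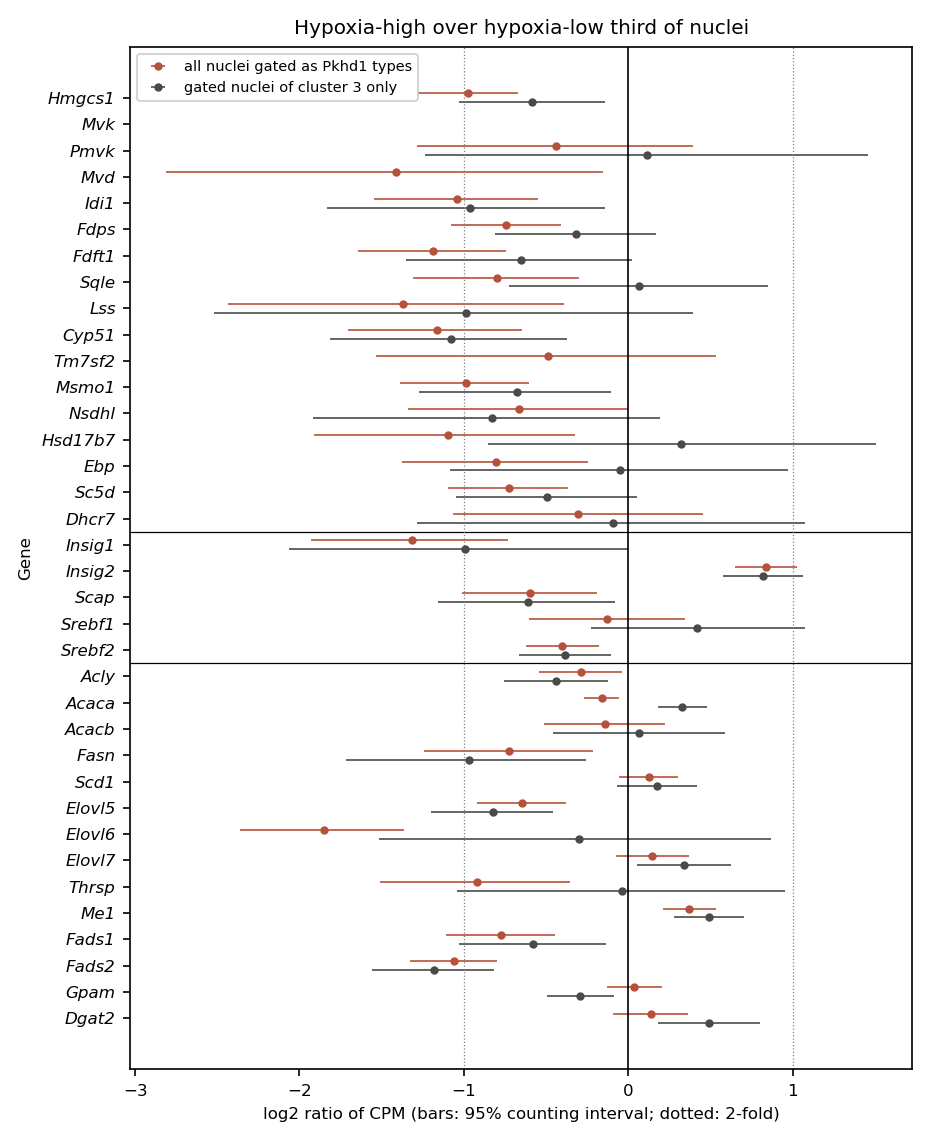
Log2 ratio of each member in hypoxia-high over hypoxia-low nuclei, over all gated Pkhd1-type nuclei and within cluster 3 alone. Most sterol enzymes and Elovl6 lie nearer 0 within cluster 3, Fads2 is past 2-fold in both and Insig2 is above 0 in both.

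Genes that act beside these pathways were read from 5 further lists, and of all genes 20.6% were higher and 8.92% lower in Ccnd3-type nuclei. In Ccnd3-type nuclei, the 8 genes that cut, hold or degrade SREBP and INSIG had a median log2 ratio of 0.09 and none was at least 2-fold higher, while Erlin1, which takes part in degradation in the endoplasmic reticulum, was lower (-1.18). Of 10 genes of cholesterol efflux and esterification, 4 were higher and 1 lower. Soat1, which esterifies cholesterol, had 126 CPM in Ccnd3-type and 9.0 CPM in hepatocyte nuclei (log2 ratio 3.67), and Abcg1, a sterol exporter, had a log2 ratio of 3.08, while Soat2, the esterifying enzyme of hepatocytes, stood at -0.73. Stard4, a sterol carrier, was lower (-1.17). Of the esterifying enzymes, 1 was thus higher and the other within 2-fold, and the list's median log2 ratio was -0.11.

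Of 18 genes of fatty acid activation and glycerolipid synthesis, 2 were higher in Ccnd3-type nuclei and 6 lower, with a median log2 ratio of -0.23. Scd2, a desaturase close in sequence to Scd1, so that reads may be split between them, had 90.9 CPM in Ccnd3-type and 9.71 CPM in hepatocyte nuclei (log2 ratio 3.10), while Lpin1, a phosphatidate phosphatase, and Acsl1, an acyl-CoA synthetase, stood at -2.42 and -1.78. The 12 genes of fatty acid oxidation had a median of -0.26, and none was at least 2-fold higher. Of 12 lipogenic transcription factors and nuclear receptors, Rxra (-1.45) and Ppara (-1.35) were lower and 1, Nfya, was higher, with a median of -0.22.

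Nfya, the subunit of NF-Y that reads CCAAT, had 770.5 CPM in Ccnd3-type, 935 in Kcnj16-type and 1253 CPM in Zfp804a-type nuclei, against 49.2 CPM in hepatocyte nuclei. That was 15.7-fold higher in Ccnd3-type (14.9 to 16.5) and 25.5-fold higher in Zfp804a-type nuclei. Nfya lies near Ccnd3 on chromosome 17, and 83.3% of the measured genes around both were also at least 2-fold higher in Kcnj16-type nuclei. Its partner subunits did not share this size: Nfyb had 25.5, 24.8 and 28.4 CPM in the 3 types and 28.8 CPM in hepatocyte nuclei, and Nfyc had 197, 149 and 143 CPM, against 124 CPM in hepatocyte nuclei. In pericentral nuclei the same lists showed Pparg, a nuclear receptor of fat storage, at 111 CPM, against 5.97 CPM in periportal nuclei (log2 ratio 4.01), and Mogat1, an acyltransferase, at a log2 ratio of 1.36; no other gene of the 5 lists was past 2-fold there. In stroma 4 of the 10 efflux and esterification genes were higher (22.7% of all genes) and 6 lower (13.8%), among them Abcg1 (2.65) and Mylip, a ubiquitin ligase of lipoprotein receptors (3.43), above hepatocytes and Soat2 (-2.34) and Abcg8, a biliary sterol exporter (-2.21), below them on the log2 scale.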

How the data were processed

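Unique molecular identifier counts per gene and barcode were used as the authors deposited them. Cell Ranger 5.0 and mm10 are named in the submitters' processing notes, and the file headers give software versions 5.0.0 for the filtered and 4 for the unfiltered matrix. Barcodes carry 1 suffix and no sample name, so both samples were analysed as 1 pool, with no replicates and no tests. The 36 members, the gates and the further lists were chosen with earlier results of these data known.

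Filters were 500 UMIs, 300 genes and 5% mitochondrial UMIs, which removed 758 barcodes. For each of 17 marker lists in 10 lineages, a nucleus met a gate with at least 3 UMIs over at least 2 markers and a Poisson tail under 0.001 given the free RNA profile (33561887 UMIs), and took a lineage whose log tail was at least 2 times that of any other. The share of free RNA in a class was estimated from marker genes of other lineages, and may include their own low expression. It gives more Scd1 than was counted in several classes, so it may be too high. Scrublet called 323 doublets among barcodes with at least 2000 UMIs; they were kept, and removed as an alternative. Leiden clusters were made without the members.

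Levels were summed counts scaled to CPM with exact Poisson intervals, and ratios used 1 CPM added; a call needed 2-fold and 20 UMIs over both classes. Fold changes with intervals were computed without added CPM. Any member could be named, with full values for those at least 2-fold apart (at most 12 per comparison), and from each further list the 2 highest and 2 lowest, of which some are not reported here. Printed promoters were the 4 with most motif matches among members at least 2-fold apart in Ccnd3-type nuclei; Dhcr7 held as many as Insig1 and Msmo1 and was taken by alphabet. Cluster comparisons, cluster 3 alone in the hypoxia ranking and NF-Y partner subunits were added after the values were seen. Gene positions are from GENCODE vM21 on GRCm38, matched by gene ID for all 36 members, of which 9 overlap a gene on the opposite strand, and promoters from RefSeq GRCm38.p6. The ratio and interval steps were tested on simulated data. Software was Python 3.11.15, numpy 2.4.6, scipy 1.17.1, pandas 2.3.3, scanpy 1.11.5, leidenalg 0.10.2 and matplotlib 3.10.9.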

Additional observations from a re-analysis of the deposited data

How the results depend on the processing

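No paired analysis was possible because nothing ties a nucleus to either sample, and for that reason neither sample could be left out. Over the settings chosen with the design, 117 recomputed list medians stayed within their counting interval and 23 moved beyond it; signs changed for the dividing nuclei alone, whose medians lay near 0. The counts of lower sterol enzymes lay between 16 and 17 in Ccnd3-type, at 17 in Kcnj16-type, at 16 in Zfp804a-type and between 15 and 17 in stromal nuclei, between 2 and 7 in pericentral and between 0 and 9 in hypoxia-high nuclei. The largest shifts came from subtracting free RNA, with median log2 ratios (sterol, then fatty acid) of -4.94 and -1.99 in Ccnd3-type, -3.47 and -1.54 in Kcnj16-type, -2.57 and -1.80 in Zfp804a-type, -6.16 and -3.98 in ductal and -6.19 and -5.29 in stromal nuclei, and sterol medians of -0.77 in pericentral and -1.91 in hypoxia-high nuclei; genes left near 0 make these values depend on the added 1 CPM. Scaling by the median gene ratio gave -2.09 and -1.51 in Ccnd3-type nuclei and fatty acid medians of -1.33 in Kcnj16-type and -1.60 in Zfp804a-type nuclei. Gates without their most abundant marker gave fatty acid medians of -0.90 in Kcnj16-type and 0.20 in dividing nuclei and a sterol median of -0.46 in pericentral nuclei, and removing doublets a fatty acid median of -1.86 in stroma. Leiden clusters in place of gates gave -0.89 and -0.67 in pericentral nuclei, as did cluster 16 over cluster 2, and a sterol median of -0.29 in hypoxia-high nuclei; they gave no value for Zfp804a-type or ductal nuclei. Among readings added after the values were seen, gated nuclei of cluster 7 gave -2.20 and -1.81 for the Ccnd3 gate and a fatty acid median of -2.01 for the Zfp804a gate, cluster 9 gave -0.84 and cluster 10 -1.06 for fatty acid genes of the Ccnd3 gate, and cluster 3 a sterol median of -2.43 for the Kcnj16 gate. Tm7sf2 in dividing nuclei turned to 0.13 with Leiden clusters and 0.16 with cluster 21 over cluster 3, and Hsd17b7 turned to 0.29 in hypoxia-high nuclei within cluster 3. The cause was not tested for any of these. Depth limits the ductal class and genes under 20 UMIs.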

Other observations

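Nfya lies on chr17 at 48386885-48409906, under 1 Mb from Ccnd3 at 47505051-47599691, a gate gene of the Ccnd3-type nuclei, and the genes around both were read after these values were seen. Of the 30 genes with enough UMIs between 47005051 and 48909906, 25 (83.3%) were at least 2-fold higher in Kcnj16-type than in hepatocyte nuclei, against 18.7% of all chr17 genes. The Kcnj16-type marker list holds none of them. The Ccnd3-type list, against which these nuclei were also weighed, holds Ccnd3, so the gating was not wholly free of the region. In Ccnd3-type nuclei 28 of 32 genes (87.5%) were higher, against 20.9% of chr17 genes. Tfeb, a transcription factor of lysosomal genes, was 22.2-fold higher in Kcnj16-type nuclei, Usp49, a ubiquitin protease, 17.3-fold, and Mrps10, a mitochondrial ribosomal protein, 13.6-fold, while Ubr2, a ubiquitin ligase, stood at 0.65-fold. In cluster 20, whose leading genes include Grhl2 and Anxa13 and which expresses Cftr, 11 of 29 genes (37.9%) were higher, against 23.2% of chr17 genes, and Nfya had 90.0 CPM. In stroma 7 of 30 (23.3%) were higher, against 20.3% of chr17 genes. DNA copy number was not measured in the files used here, and its part in these levels was not tested.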
